A study of Drosophila melanogaster with 28 samples.

Results

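The genes described here are a named set of 7 larval serum and fat body genes of Drosophila melanogaster, followed through 28 mRNA sequencing libraries of embryos. They were taken by symbol from the deposited tables of 17558 genes at 14-16 h and 17753 genes at 16-18 h of development, and they are the larval serum protein genes Lsp1alpha, Lsp1beta, Lsp1gamma and Lsp2, the alcohol dehydrogenase gene Adh, the fatty acid synthase gene FASN1 and the lipocalin gene NLaz. All 7 had an entry in each table. FASN1 appears at 14-16 h under an older identifier and was matched through the RefSeq synonyms.

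The libraries come from a study of where transcription starts and which mRNA isoforms follow, and they profile embryos with mutations in regulators of transcription. Embryos of nej3 and nejEP1179, 2 alleles of the gene for the CBP acetyltransferase, were compared at 14-16 h with the w1118 control (4 libraries each). The later set, of 16-18 h, was labelled Dfd1 (2 libraries, an allele of the Hox gene Dfd), ez731 (3, E(z) of Polycomb repressive complex 2), psce22 (2) and psch27 (3, both alleles of the Polycomb gene Psc), SppsG8810 (3, the Polycomb-associated DNA-binding factor Spps) and w1118 (3). Mutants came from stocks kept heterozygous over GFP balancers, so each mutant library is a pool of embryos picked by shape and by lack of GFP, and whole embryos were extracted. Nothing in the labels says that replicates were separate crosses, so a p-value speaks only for the spread among these libraries. The mutants and w1118 are different stocks, so a mutation cannot be told apart from other differences between stocks. In whole-embryo RNA the tissue that made a transcript is not seen, and fewer fat body cells and less RNA per cell cannot be told apart.

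The fat body is the insect organ of storage and intermediary metabolism, comparable to liver and adipose tissue. During larval life it secretes hexamerins, the large serum proteins encoded by the Lsp genes, into the haemolymph, and these are later taken up and used as a store of amino acids for building the adult. The same tissue builds and stores triglyceride, ferries lipid on lipophorin particles, detoxifies alcohol and releases signals that report nutrition. In the embryo the organ is specified from mesoderm under the GATA factor gene srp.

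Total counts ranged from 13129082 to 21509453 per library at 14-16 h and from 17940038 to 22354257 at 16-18 h. Levels are CPM, the count scaled to a library of 1000000 reads, changes are log2 fold changes ± SE, and a gene passed the test at an adjusted p under 0.05. Reads carried no molecular identifiers, so limits drawn from counts cover counting error only. The 16-18 h labels did not all match the data. The mean normalized counts in the authors' ez731 table equalled those of the 2 psce22 columns with psch27 replicate 1, their psce22 table those of psch27 replicates 2 and 3, their psch27 table those of SppsG8810 and their SppsG8810 table those of ez731. E(z) had 14.2 to 15.7 CPM in psce22 and psch27 replicate 1, against 22.9 to 25.7 CPM in w1118, whereas libraries labelled ez731 had 20.8 to 22.1 CPM. Any group name of this age therefore stands for the libraries so labelled, and not for a genotype known from the data. Values are given per library, and psch27 replicate 1 is named wherever it decides a result. Tables and labels matched for Dfd1, nej3 and nejEP1179.

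Fat body transcripts were present in every group, though several storage genes were at or near 0. Among 9 fat body markers, apolpp, which encodes the precursor of the lipophorin apolipoproteins, had 4416 to 6182 CPM at 14-16 h and 994 to 2226 CPM at 16-18 h. The GATA factor gene srp had 68.9 to 82.4 CPM at the earlier age and 58.0 to 106 CPM at the later one. Fbp1, a receptor for LSP1, reached at most 5.26 CPM and Fbp2 at most 0.870 CPM, while Lsp1alpha was at 0 in all 12 libraries of 14-16 h.

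Per kilobase of coding sequence, the lipid genes stood above the serum protein genes in all 9 groups. In w1118 at 14-16 h NLaz averaged 19.3 ± 2.84 CPM per kb and FASN1 3.72 ± 0.765, followed by Lsp1gamma at 0.821 ± 0.158 and Lsp2 at 0.537 ± 0.0771 (SD, n = 4). Adh at 0.167 ± 0.166 and Lsp1beta at 0.0416 ± 0.0173 CPM per kb came last before Lsp1alpha. In w1118 at 16-18 h the same leading order was found, with NLaz at 27.6 ± 1.63, FASN1 at 20.3 ± 1.69 and Lsp1gamma at 1.72 ± 0.0419 CPM per kb (SD, n = 3). Adh and Lsp2 overlapped in that group, as their means of 0.475 ± 0.339 and 0.327 ± 0.159 CPM per kb differed by less than their spread. Only 138 of 2254 exonic bases of Adh and 381 of 2477 of Lsp2 belong to no other annotated gene. How reads over the remaining bases were counted is not stated, so the places of Adh and Lsp2 in these orders are uncertain.

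The LSP1 subunit genes lie on 3 chromosomes and were expressed unequally, as the values per kilobase show. Lsp1alpha (FBgn0002562) lies at chrX:12490291-12492982, Lsp1beta (FBgn0002563) at chr2L:898500-901316 and Lsp1gamma (FBgn0002564) at chr3L:66430-68995 on dm6. No exon of these genes overlaps another annotated gene. Lsp1alpha gave 10 counts in 7 of the 16 libraries of 16-18 h and never passed the filter on low counts. Lsp1beta gave 20 counts in all at 14-16 h, too few to be tested there.

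Lsp1gamma rose 3.83-fold in nej3 and 3.97-fold in nejEP1179. In nej3 it had 6.71, 8.62, 7.05 and 6.89 CPM, against 1.49, 2.27, 2.14 and 1.70 CPM in w1118. In nejEP1179 it had 7.50, 7.45, 8.09 and 7.26 CPM. All 8 mutant libraries lay above all 4 controls, and the mutants formed a tight band. The change was 1.94 ± 0.14 in nej3 (adjusted p = 5.14e-08) and 1.99 ± 0.14 in nejEP1179 (adjusted p = 3.27e-08), which share their controls. The difference, nej3 minus nejEP1179, was -0.05, with a 95% interval of -0.31 to 0.21.

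At 16-18 h Lsp1gamma ranged between 0.0982 and 96.05 CPM across libraries. Libraries labelled Dfd1 had 0.163 and 0.0982 CPM, from 4 and 2 counts, against 3.92, 3.95 and 4.10 CPM in w1118. Libraries labelled ez731 had 1.18, 1.34 and 0.205 CPM. Every library of both labels lay below every control, but the changes of -4.84 ± 2.06 (adjusted p = 0.0669) and -2.14 ± 1.32 (adjusted p = 0.247) did not pass. These p-values rest on a spread that is shared across the table and that psch27 replicate 1 widens. With that library left out of the fit, an alternative chosen after its values were seen, both passed, at 4.58e-05 for Dfd1 and 0.00131 for ez731. The planned fit of only the groups compared passed 1 member as lower for each of these labels. In the fit of all groups Lsp1gamma alone of the members tested had a negative change there.

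In libraries labelled psce22 Lsp1gamma had 88.2 and 64.7 CPM, the change against w1118 being 4.26 ± 1.16 (adjusted p = 0.0146). The libraries labelled psch27 divided into 96.05 CPM in replicate 1 and 2.96 and 3.72 CPM in replicates 2 and 3. Thus 3 libraries stood far above the controls, and they are the mutant columns whose mean, taken with w1118, the authors' ez731 table holds. The psch27 change of 3.10 ± 1.07 (adjusted p = 0.111) rested on replicate 1, without which it was -0.25, and it passed without replicate 2 (adjusted p = 0.0411). Leaving out either psce22 library raised the adjusted p of psce22 to 0.0516 or 0.0631. Libraries labelled SppsG8810 had 6.09, 4.68 and 3.76 CPM and overlapped the controls (0.28 ± 1.08, adjusted p = 0.931).

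**Figure D1:**
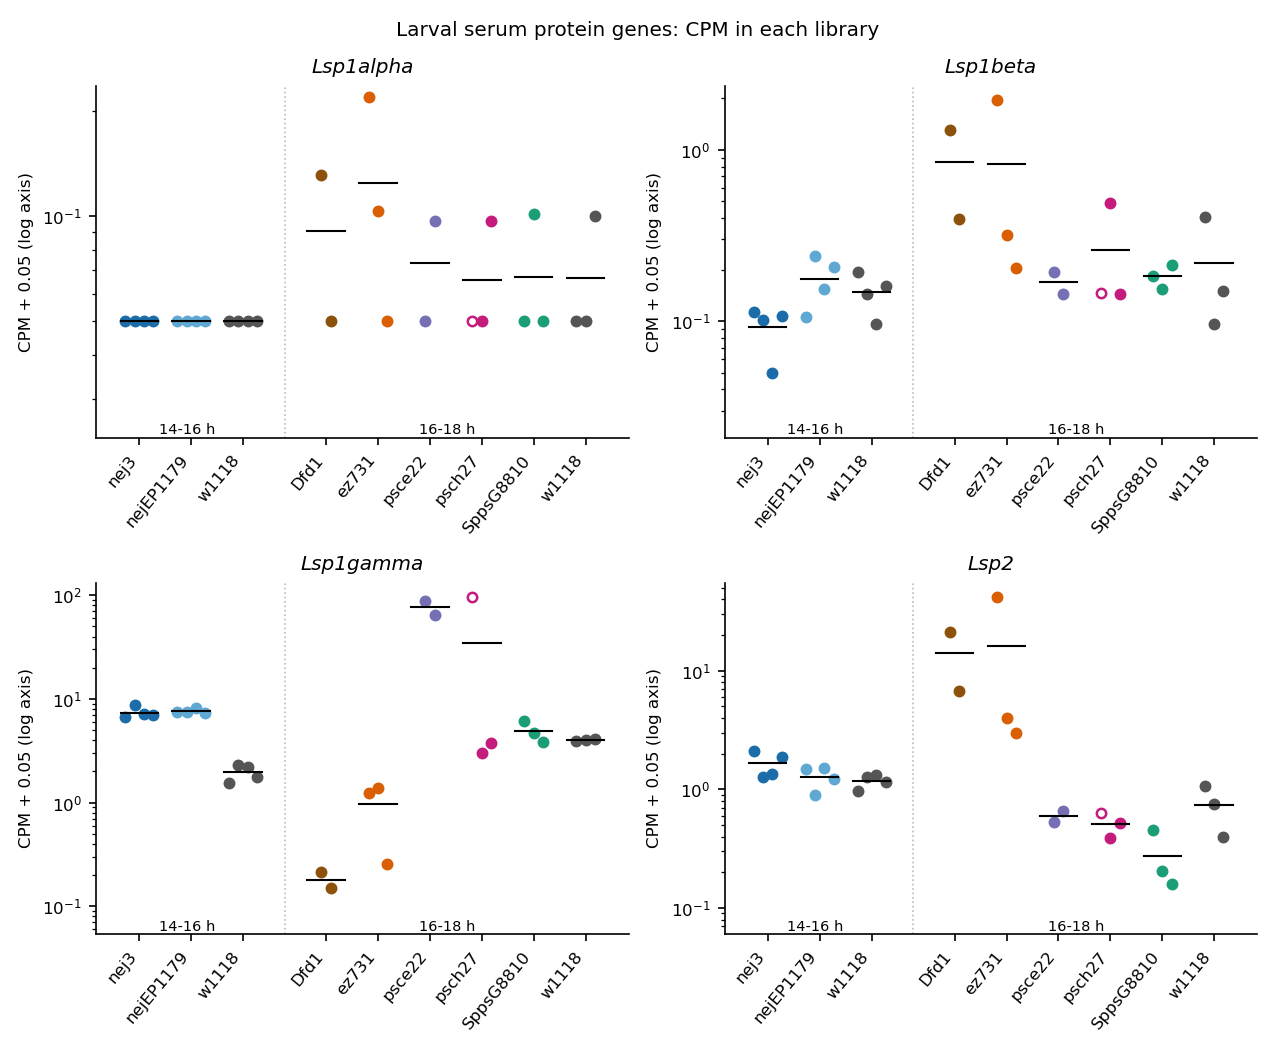
CPM with 0.05 added, on a log axis, of Lsp1alpha, Lsp1beta, Lsp1gamma and Lsp2 in each of 28 libraries (points) of the 9 groups, with each group's mean as a bar and psch27 replicate 1 as an open circle. Lsp1gamma was high in both nej alleles, in psce22 and in psch27 replicate 1, and Lsp2 was high in Dfd1 and ez731.

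Lsp1beta and Lsp2 followed another course, with their highest levels in the libraries labelled Dfd1 and ez731. Lsp1beta had 1.26 and 0.344 CPM in Dfd1 and 1.92, 0.269 and 0.154 CPM in ez731, against 0.356, 0.0465 and 0.100 CPM in w1118. One library of each label stood clear and the rest overlapped the controls. Its changes of 2.27 ± 1.03 (adjusted p = 0.0810) and 2.18 ± 0.98 (adjusted p = 0.114) did not pass the test.

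Lsp2 (FBgn0002565), the gene of the separate LSP2 hexamerin, is a single exon at chr3L:12129393-12131869. Of its 2477 exonic bases 2096 lie opposite the antisense RNA asRNA:CR11538, and since it is not stated whether counting used strand, reads of the pair may be shared. At 14-16 h it had 2.07, 1.22, 1.30 and 1.84 CPM in nej3 and 1.44, 0.854, 1.45 and 1.18 CPM in nejEP1179, against 0.914, 1.23, 1.27 and 1.10 CPM in w1118. The groups overlapped, and neither 0.49 ± 0.23 (adjusted p = 0.144) nor 0.12 ± 0.24 (adjusted p = 0.754) passed. In those embryos the difference between nej3 and nejEP1179 was 0.37 (95% interval -0.13 to 0.87).

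At 16-18 h Lsp2 rose in the libraries labelled Dfd1 and ez731. It had 21.2 and 6.68 CPM in Dfd1, against 1.02, 0.697 and 0.350 CPM in w1118 (4.33 ± 1.05, adjusted p = 0.00490). In ez731 it had 41.9, 3.92 and 2.92 CPM (4.55 ± 1.02, adjusted p = 0.00656). Each of these 5 libraries lay above the controls, though the libraries of a label differed severalfold. Without ez731 replicate 1 the ez731 change was 2.31 (adjusted p = 0.00777). Elsewhere Lsp2 stayed at 0.109 to 0.608 CPM, and psce22 (-0.34 ± 1.33), psch27 (-0.56 ± 1.21) and SppsG8810 (-1.55 ± 1.37) overlapped the controls, with adjusted p of 0.590 to 0.865.

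Genes of adult flies were high in the libraries with high Lsp2. The 3 yolk protein genes Yp1, Yp2 and Yp3, made in the adult female fat body and ovary, summed to 994 and 324 CPM in Dfd1 and to 1072, 91.9 and 81.6 CPM in ez731, against 9.92, 5.21 and 4.90 CPM in w1118. Both labels thus kept the same order of libraries for yolk and Lsp2. Lsp2 came to 2.06 and 2.14 per 100 yolk protein CPM in Dfd1 and 3.58 to 4.27 in ez731, a narrow range within each label. In psch27 replicates 2 and 3 the yolk sum, 24.5 and 15.8 CPM, also lay above the controls, while Lsp2 was at 0.340 and 0.471 CPM, or 1.39 and 2.99 per 100. It came to 7.14 to 13.4 per 100 in w1118.

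Further transcripts did the same. Tsf1, which encodes transferrin, is from the list of secreted fat body products and was chosen after its values were seen. It had 18.2 and 4.18 CPM in Dfd1 and 45.3, 3.22 and 1.64 CPM in ez731, and at most 0.574 CPM elsewhere at this age. The eggshell and yolk list had 12 of 12 genes higher in Dfd1 and 6 of 12 in ez731, with medians of 7.93 and 4.44, where 25.5% and 13.2% of all genes were higher. Its summed level was 1038 to 3441 CPM in Dfd1 and 95.8 to 1322 CPM in ez731, against 6.40 to 25.1 CPM in w1118, and none of its genes was at 0 throughout a group. The part of these transcripts in the Lsp2 and Lsp1beta results was not tested. Lsp1gamma did not share this pattern, being lowest in the same 5 libraries.

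**Figure D2:**
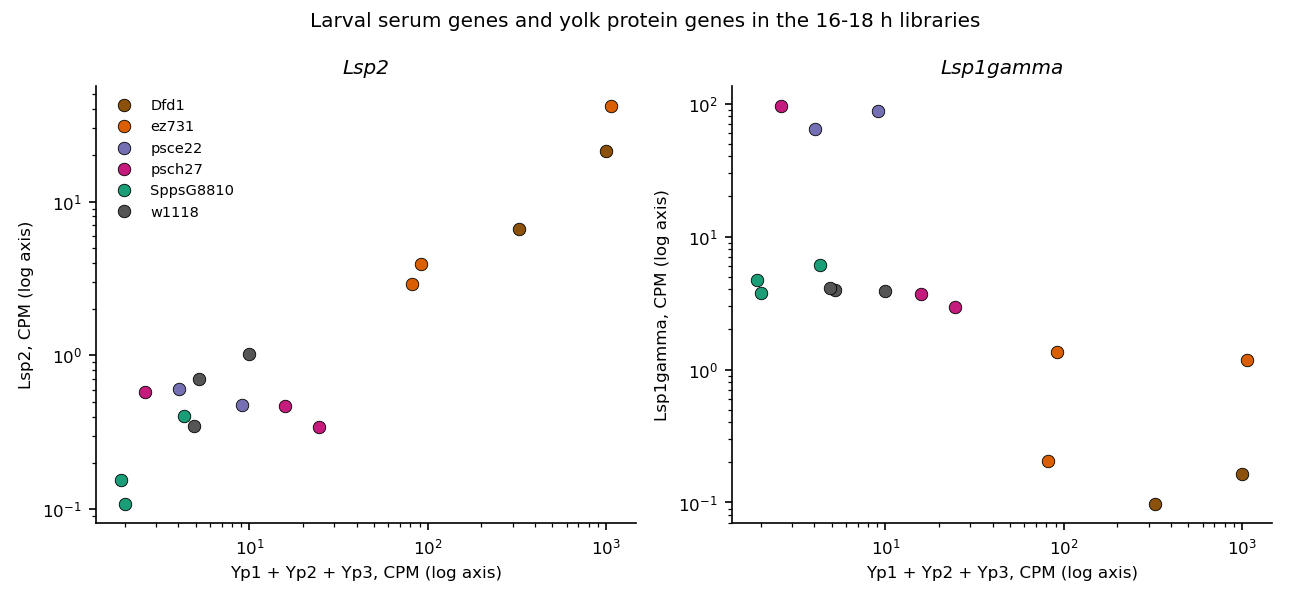
Levels of Lsp2 and Lsp1gamma (CPM, log axis) against the summed level of Yp1, Yp2 and Yp3 (CPM, log axis) in the 16 libraries of 16-18 h. Points of Dfd1 and ez731 run upwards together for Lsp2, whereas for Lsp1gamma they lie at the bottom, below the controls.

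Adh (FBgn0000055) encodes the enzyme with which flies oxidize ethanol. It lies at chr2L:14615552-14618902, inside an intron of osp on the other strand, and 2116 of its 2254 exonic bases are shared on the same strand with the downstream gene Adhr, which leaves 138 bases to Adh alone. Adhr was at 0 in all 28 libraries, and how reads over shared exons were assigned is not stated. The Adh values are therefore low counts from an uncertain part of the gene.

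Adh rose in nej3, where it had 0.565, 1.12, 0.9995 and 0.344 CPM (6 to 22 counts), against 0.192, 0, 0.0455 and 0.274 CPM (0 to 5 counts) in w1118. In nejEP1179 it had 0.722, 0.664, 0.259 and 0.158 CPM. All nej3 libraries exceeded the controls, while 2 of the 4 nejEP1179 libraries did. The changes were 2.60 ± 0.64 (adjusted p = 0.00786) and 1.90 ± 0.70 (adjusted p = 0.0609), the second of which passed with DESeq2 (adjusted p = 0.0357). For nej3 minus nejEP1179 the interval ran from -0.38 to 1.79 around 0.70.

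At 16-18 h Adh lay well above the controls in some mutant libraries and at or near 0 in others. It had 3.51 and 3.29 CPM in libraries labelled Dfd1, 3.50, 4.30 and 3.02 CPM in ez731 and 2.25 and 4.02 CPM in psce22, against 0.305, 0.139 and 0.650 CPM in w1118. These 7 libraries lay above all controls. The changes were 3.21 ± 1.15 in Dfd1 (adjusted p = 0.0338), 3.30 ± 1.09 in ez731 (adjusted p = 0.0404) and 3.09 ± 1.16 in psce22 (adjusted p = 0.0510). The psce22 change passed with RLE scaling (0.0498), with only psce22 and w1118 fitted (0.00205) and with psch27 replicate 1 left out of the shared fit (1.93e-04). Without a filter on low counts, with DESeq2 or with a replicate block, the adjusted p of the Dfd1 and ez731 changes was 0.0526 to 0.0969. Leaving out any 1 library but w1118 replicate 3 raised that of Dfd1 to 0.0744 to 0.106, and leaving out any 1 library raised that of ez731 to 0.0598 to 0.135.

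The psch27 libraries divided again for Adh, with 2.37 CPM from 49 counts in replicate 1 and 0 counts in replicates 2 and 3, so the change of 1.11 ± 1.18 (adjusted p = 0.646) describes neither. Replicates 2 and 3 together were at least 5.01-fold lower than w1118, taking 3 counts over both as the limit for 0. SppsG8810 had 0, 0 and 0.109 CPM, 2 counts against 22 in w1118, a ratio of 0.0925 with an exact 95% counting interval of 0.0105 to 0.376 (adjusted p = 0.386). With psch27 replicate 1 left out of the fit that p was 0.0246.

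**Figure D3:**
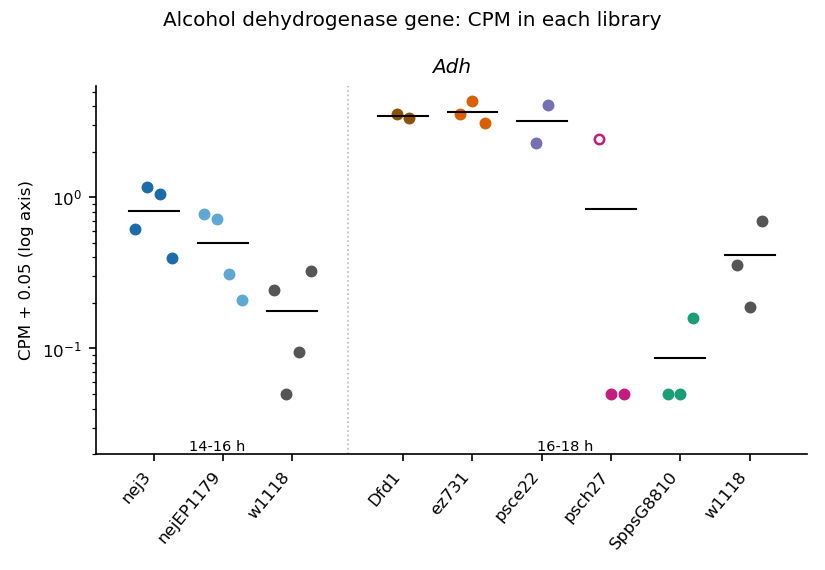
CPM of Adh in each of 28 libraries (points) of the 9 groups, with group means as bars and psch27 replicate 1 as an open circle. Libraries labelled Dfd1, ez731 and psce22 lie at 2.25 to 4.30 CPM, as does psch27 replicate 1, and those of SppsG8810 lie at or near 0.

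FASN1 (FBgn0283427), the multidomain enzyme that makes palmitate from acetyl-CoA and malonyl-CoA, lies at chr2L:3056598-3068177, 455 bases from its paralog FASN2 with no shared exon. It had 33.9, 44.7, 36.8 and 48.6 CPM in nej3 and 38.1, 46.0, 49.3 and 45.1 CPM in nejEP1179, against 33.6, 28.5, 31.0 and 20.2 CPM in w1118. Every mutant library lay above every control, the lowest nej3 library only just. The rises were 0.53 ± 0.16 (adjusted p = 0.0341) and 0.65 ± 0.16 (adjusted p = 0.0133). The first was lost without a filter on low counts (0.0587), with only nej3 and w1118 fitted (0.0718), with a replicate block (0.0908) and without nej3 replicate 2 or 4 or w1118 replicate 2 (0.0750 to 0.0865).

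At 16-18 h FASN1 was above all controls in 12 of the 13 mutant libraries. It had 229 and 165 CPM in libraries labelled Dfd1, 305, 309 and 351 CPM in ez731, 638 and 464 CPM in psce22, 623, 299 and 234 CPM in psch27 and 237, 235 and 319 CPM in SppsG8810, against 153, 168 and 143 CPM in w1118. Only Dfd1 overlapped the controls, and psce22 with psch27 replicate 1 held the 3 highest values. FASN1 rose in psce22 (1.83 ± 0.33, adjusted p = 0.00303), psch27 (1.32 ± 0.30, adjusted p = 0.0228) and ez731 (1.05 ± 0.30, adjusted p = 0.0206). The psch27 rise was 0.78 without psch27 replicate 1 (adjusted p = 0.0201), and it was lost with only psch27 and w1118 fitted (0.177) or without any 1 of the w1118 libraries (0.0680 to 0.0833). The ez731 rise was lost without ez731 replicate 3 or w1118 replicate 1 or 3 (0.0585 to 0.0698). It did not pass in SppsG8810 (0.77 ± 0.30, adjusted p = 0.149) or Dfd1 (0.35 ± 0.33, adjusted p = 0.3998). The SppsG8810 change passed with only SppsG8810 and w1118 fitted (0.0129), and with psch27 replicate 1 left out of the shared fit (0.0111).

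NLaz (FBgn0053126) encodes Neural Lazarillo, a secreted lipocalin related to apolipoprotein D that restrains insulin signalling in the fly. It lies at chr2L:1359837-1361821, 47 bases from CG31659 on the same strand. It was the single member that fell in the nej alleles, with 8.85, 8.67, 7.95 and 8.84 CPM in nej3 and 12.4, 10.2, 8.82 and 9.08 CPM in nejEP1179, against 13.4, 13.5, 12.6 and 17.3 CPM in w1118. All mutant libraries lay below all controls. The change was -0.73 ± 0.12 in nej3 (adjusted p = 2.93e-04) and -0.48 ± 0.12 in nejEP1179 (adjusted p = 0.00669), and nej3 minus nejEP1179 was -0.24 (95% interval -0.50 to 0.01).

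In the libraries of 16-18 h, which are labelled with other mutations, NLaz was higher than in w1118. It had 97.7 and 96.1 CPM in libraries labelled Dfd1, 74.9, 98.7 and 136 CPM in ez731, 114 and 142 CPM in psce22, 193, 29.0 and 74.9 CPM in psch27 and 42.0, 36.3 and 42.9 CPM in SppsG8810, against 19.7, 19.6 and 21.7 CPM in w1118. All 13 mutant libraries were above the 3 controls. NLaz rose 4.77-fold in Dfd1 (2.25 ± 0.54, adjusted p = 0.00462), 5.08-fold in ez731 (2.34 ± 0.51, adjusted p = 0.00573), 6.30-fold in psce22 (2.65 ± 0.54, adjusted p = 0.00496) and 4.87-fold in psch27 (2.28 ± 0.51, adjusted p = 0.0205). The SppsG8810 change was 0.99 ± 0.50 (adjusted p = 0.275), and with only SppsG8810 and w1118 fitted its adjusted p was 1.06e-05. These 5 comparisons share the 3 control libraries, and without any 1 of them the psch27 rise did not pass (0.0648 to 0.0823). The psch27 rise was 1.36 without psch27 replicate 1 (adjusted p = 0.0312), and it did not pass with only psch27 and w1118 fitted (0.185).

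The neighbouring gene CG31659 was also higher in the mutant libraries of 16-18 h than in w1118 of that age, on few counts. It had 1.59 and 1.42 CPM in Dfd1, 1.35, 2.63 and 1.49 CPM in ez731, 0.526 and 0.982 CPM in psce22, 0.870, 0.146 and 0.236 CPM in psch27 and 2.60, 1.65 and 1.47 CPM in SppsG8810, against 0.102, 0.0930 and 0.04999 CPM in w1118. In the w1118 libraries of this age 3 counts came to 0.139 to 0.153 CPM, so every control lay below 3 counts. The order of groups for CG31659 was not that of NLaz, since SppsG8810 was among the highest.

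**Figure D4:**
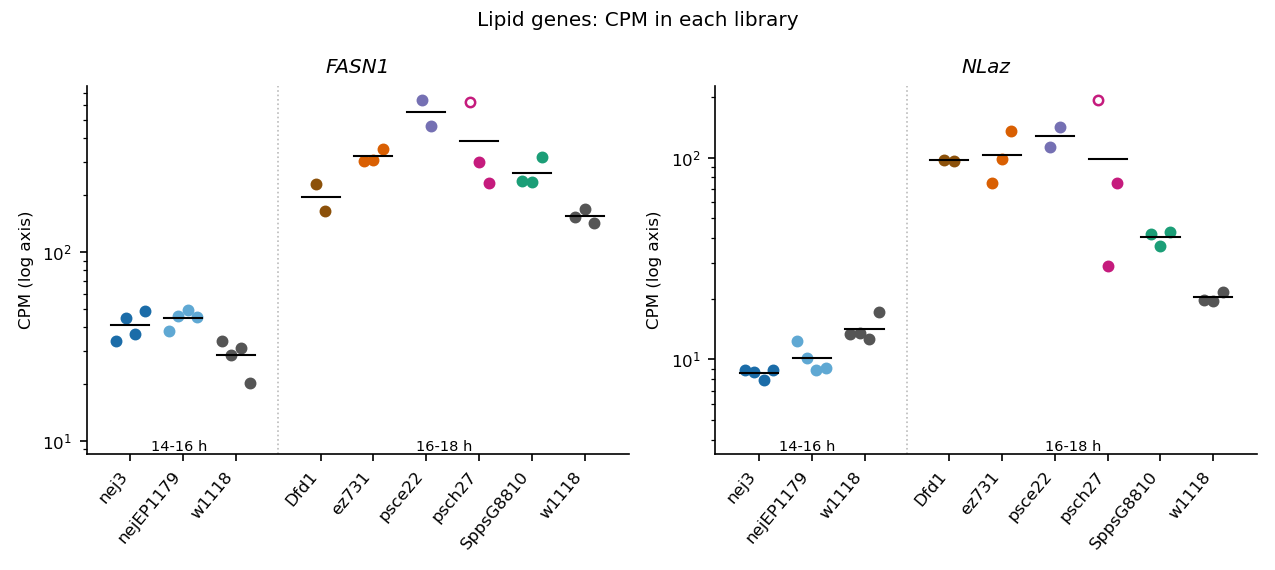
CPM on a log axis of FASN1 and NLaz in each of 28 libraries (points) of the 9 groups, with group means as bars and psch27 replicate 1 as an open circle. NLaz lies below w1118 in both nej alleles and above it in all 13 mutant libraries of 16-18 h.

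Counted together, 4 of the 7 genes passed in nej3 and 3 in nejEP1179, where 5 could be tested and 24.0% and 24.9% of all genes passed. Between the alleles none passed in edgeR, where 9.30% of all genes did, and 0 had an unadjusted p under 0.05 or passed in DESeq2. At 16-18 h, with 6 tested, 3 passed in Dfd1 (52.5% of all genes), 4 in ez731 (28.9%), 3 in psce22 (39.6%) and 2 in psch27 (7.49%). In SppsG8810 0 passed in edgeR (8.86% of all genes) and 0 in DESeq2, and 1 had an unadjusted p under 0.05. The Dfd1 share lies near its background. Between psce22 and psch27 0 passed in edgeR or DESeq2, or had an unadjusted p under 0.05, where 12.0% of all genes passed. With psch27 replicate 1 moved to the psce22 group, Lsp1gamma (4.63), Adh, FASN1 (1.11) and NLaz (1.53) were all higher in psce22 than in the remaining psch27 libraries, Adh by at least 40.3-fold.

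**Figure D5:**
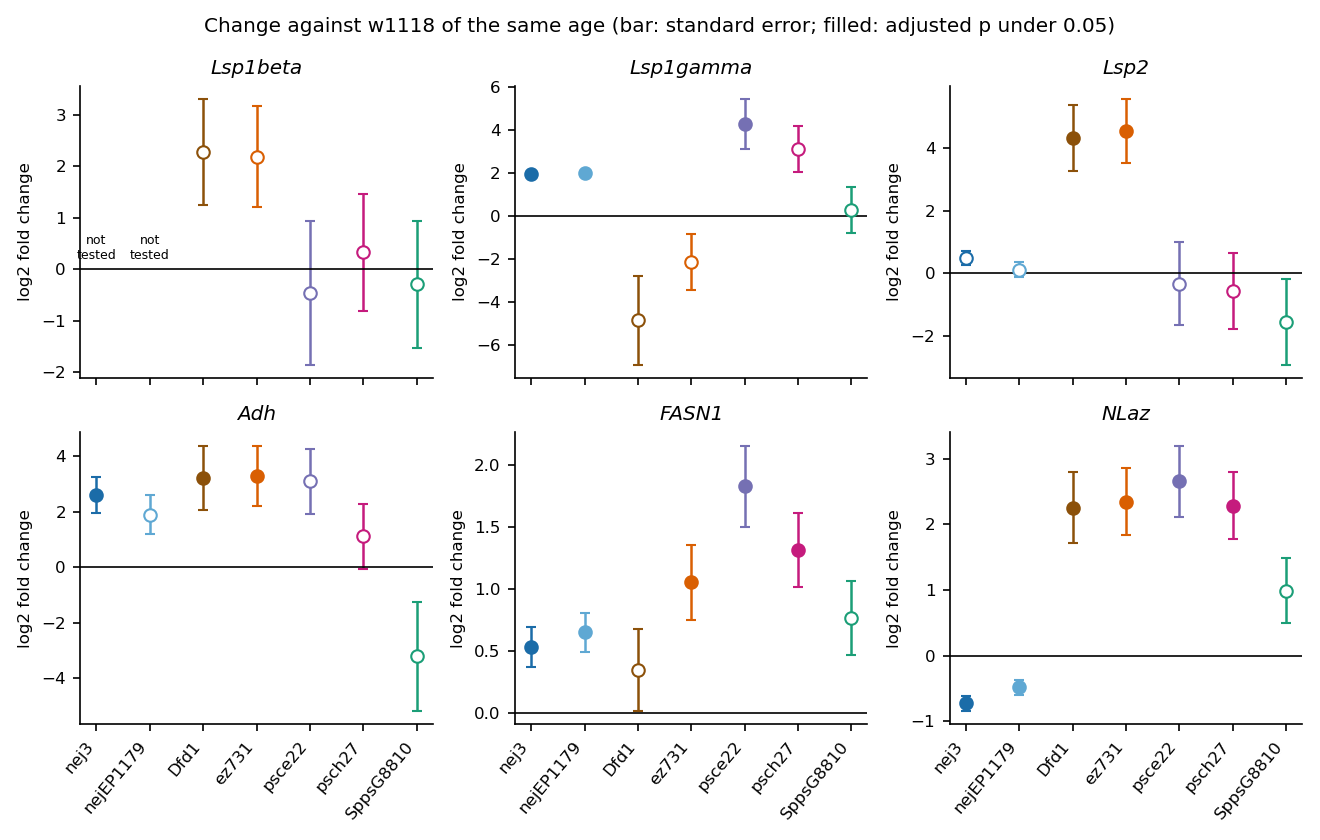
Log2 fold change ± SE against w1118 of the same age for 6 genes in the 7 mutant groups. Filled points have an adjusted p under 0.05, Lsp1beta was not tested at 14-16 h, and NLaz lies below 0 in both nej alleles and above 0 in all 5 groups of 16-18 h.

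Between the ages, w1118 embryos of 16-18 h had 5.45-fold more FASN1 than those of 14-16 h, the means being 155 ± 12.9 (n = 3) and 28.3 ± 5.83 CPM (SD, n = 4). That change was 2.45 ± 0.17 (adjusted p = 2.46e-05). Lsp1gamma was higher by 1.06 ± 0.16 (adjusted p = 3.74e-05) and NLaz by 0.53 ± 0.10 (adjusted p = 2.21e-04), and no later library overlapped an earlier one for these genes. Lsp2 was at -0.71 ± 0.31 (adjusted p = 0.0490), with overlapping groups, and lost its call with RLE scaling, DESeq2 or a replicate block (0.0614 to 0.104). All 4 members tested passed, but so did 80.5% of all genes, and age cannot be told apart from the experiment, because each age is a table of its own.

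Other genes of fatty acid synthesis and storage, a list that includes the lipase gene bmm, moved modestly in the nej alleles. Of 17 genes for fatty acid synthesis and storage, 6 were higher and 0 lower in nej3, and 6 higher and 1 lower in nejEP1179, where 12.3% and 12.6% of all genes were higher and 11.7% and 12.3% lower. The list's median changes were 0.074 and 0.048, against -0.0087 and -0.0044 over all genes. SREBP, the transcription factor gene of lipid synthesis, was higher in both (0.37 ± 0.05 and 0.31 ± 0.05), as was Men, which encodes the NADPH-producing malic enzyme (0.37 ± 0.05 and 0.26 ± 0.05). bmm, the triglyceride lipase gene brummer, was higher in nej3 (0.72 ± 0.05, adjusted p = 5.13e-08), and nej3 exceeded nejEP1179 by 0.75 ± 0.05 (adjusted p = 2.51e-07).

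At 16-18 h, 3 genes of this list were higher and 7 lower in Dfd1, where 25.5% of all genes were higher and 27.0% lower. In ez731 3 were higher and 2 lower (13.2% and 15.8% of all genes), and in psce22 5 and 5 (17.7% and 21.9%). In psch27 1 was higher (3.48%) and 0 lower (4%), and in SppsG8810 1 was higher (3.43%) and 1 lower (5.43%). Its median was -0.28 in Dfd1, 0.22 in ez731 and -0.20 in psce22, while all genes lay at 0.015, -0.011 and -0.022. ATPCL, whose product supplies cytosolic acetyl-CoA, rose in every label, most in ez731 (0.76) and Dfd1 (0.75), then psce22 (0.62), psch27 (0.57) and SppsG8810 (0.41). bmm was lower in Dfd1 (-0.94), ez731 (-0.74), psce22 (-0.67) and SppsG8810 (-0.56). Desat1, the delta-9 desaturase gene, was lower in Dfd1 (-0.85) and higher in ez731 (0.60).

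Alcohol and aldehyde enzymes did not follow Adh. Of 6 such genes tested, 5 were lower in Dfd1 (where 27.0% of all genes were lower), 4 in psce22 (21.9%), and 1 each in ez731 (15.8%), psch27 (4%) and SppsG8810 (5.43%), and none was higher in any label of 16-18 h in the fit of all groups. The list's median was -1.34 for Dfd1 and -0.55 for psce22, and lay between -0.39 (psch27) and 0.094 (ez731) for the other labels. The median of all genes lay between -0.022 (psce22) and 0.015 (Dfd1). Sodh-2, a sorbitol dehydrogenase gene, was lower in Dfd1 (-1.38), psce22 (-0.80), psch27 (-0.72) and SppsG8810 (-0.67), and Aldh was lower in Dfd1 (-1.30) and ez731 (-1.32). In both nej alleles Fdh, the formaldehyde dehydrogenase gene, was higher (0.76 ± 0.06 and 0.77 ± 0.06) and Sodh-1 was lower (-0.39 and -0.47).

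Among other secreted fat body products, 5 of the 12 tested were higher and 1 was lower in each nej allele, with medians of 0.20 in nej3 and 0.17 in nejEP1179. Of all genes 12.3% and 12.6% were higher and 11.7% and 12.3% lower in these alleles, with medians of -0.0087 and -0.0044. Idgf2, an imaginal disc growth factor gene, was higher (0.41 and 0.67), and the odorant-binding protein gene Obp99b was lower (-1.85 and -0.85). At 16-18 h, 4 of 15 were higher and 6 lower in Dfd1 (as were 25.5% and 27.0% of all genes), 5 and 1 in ez731 (13.2% and 15.8%), and 6 and 3 in psce22 (17.7% and 21.9%). In psch27 1 was higher and 0 lower (3.48% and 4% of all genes), and in SppsG8810 1 and 1 (3.43% and 5.43%). The list's median was below 0 in Dfd1 (-0.26) and above 0 in the ez731 (0.12), psce22 (0.42), psch27 (0.25) and SppsG8810 (0.094) libraries. The growth factor genes Idgf2 (-1.42), Idgf6 (-0.81) and Idgf4 (-0.63) were lower in Dfd1, and Idgf6 also in ez731 (-0.49) and psce22 (-0.33). Obp99b was higher in Dfd1 (2.72), ez731 (2.25), psce22 (1.81) and psch27 (1.33). Like NLaz it thus rose in labels of 16-18 h and fell in the nej alleles, but no mutant was profiled at both ages. apolpp was higher in Dfd1 (0.73), ez731 (0.88) and psce22 (0.61). ImpL2, which encodes a secreted insulin-binding protein, was higher in psce22 (1.58 ± 0.32). Fbp1 was higher in Dfd1 (3.30 ± 0.75), with 3.26 and 5.26 CPM, against 0.153, 0.325 and 0.7999 CPM in w1118.

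The regulator srp was lower in Dfd1 (-0.63 ± 0.09, adjusted p = 9.72e-05) and ez731 (-0.28 ± 0.08, adjusted p = 0.0160). Among the 9 fat body markers Lsp1gamma was also low there, but Lsp2 (4.33 and 4.55) and Adh (3.21 and 3.30) were higher. The markers summed to 1814 to 2137 CPM in Dfd1 and 2130 to 2319 CPM in ez731, against 1094 to 1431 CPM in w1118, most of it apolpp. Any link between srp and Lsp1gamma was not tested. Of the related lipocalins, GLaz was lower in Dfd1 (-1.84) and psce22 (-0.89), where NLaz was higher, and Karl was at -0.30 in Dfd1 and 0.37 in SppsG8810. Among prophenoloxidases, which belong to the same protein superfamily as the hexamerins, PPO2 was lower in both nej alleles (-0.52 and -0.70) and PPO1 likewise (-0.43 and -0.61). Both PPO genes are made by crystal cells. They make up 2 of the 4 blood cell genes that were lower in nej3, out of 9 tested, and 2 of the 3 that were lower in nejEP1179. Of all genes 11.7% and 12.3% were lower. The others were Pxn in both alleles (-0.18 each) and NimC1 in nej3 (-0.47), and the list's median was -0.18 in each. The part of that list in the results of the 7 genes was not tested.

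Over the 12 libraries of 14-16 h, the genes whose log2 CPM ran most like Lsp1gamma were Ipod (Pearson r = 0.989), Cyp4p2 (0.989) and gfzf (0.984), among 4572 genes with at least 5 CPM. Ipod had 5.29 to 7.01 CPM in w1118 and 1004 to 1386 CPM in the nej libraries, so its r mostly reflects the split of mutants from w1118. FASN1 was most like comm3 (0.977), and NLaz most like the translation factor gene eIF-5A (0.947). Over the 16 libraries of 16-18 h, among 5150 genes, Lsp2 was most like Yp3 (0.971), Yp1 (0.954) and the rhodopsin gene ninaE (0.942). Lsp1beta was most like Lsp2 (0.866), Lsp1gamma like Sema1b (0.952), Adh like St3 (0.970), FASN1 like bbg (0.942) and NLaz like mop (0.921). These values describe libraries that share groups and are no test.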

How the data were processed

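Per the labels, reads were mapped to dm6 and counted per gene with featureCounts, and the authors deposited raw read counts, 1 table per age. Strand use and tool versions are not given in the sources used here. The authors' deposited tables of each mutant against w1118 (DESeq2) hold fold changes and p-values, which were not used, and a mean normalized count (signal), which was used to learn which columns were compared, by trying 70 column sets at the earlier age and 364 at the later. The members and gene lists were chosen with earlier results of these data known.

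Counts were filtered with filterByExpr (10397 and 11366 genes left), scaled by TMM and tested with edgeR 4.0.16 (quasi-likelihood, robust), with all groups of a table in 1 fit and Benjamini-Hochberg adjustment over all genes. R 4.3.3, limma 3.58.1 and Python 3.11.15 were used, and the steps were tested on simulated data. Named genes were the 7 members, the mutated genes, up to 3 genes of each list by adjusted p in a contrast, annotated neighbours, and the most correlated genes, on log2 of CPM plus 0.5. Tsf1, Desat1 in ez731, Idgf6 in psce22, Pxn and NimC1 in the nej alleles, Aldh and Karl in Dfd1, and Obp99b in Dfd1 and nejEP1179 fall outside that rule and were chosen after their values were seen. Annotation was Ensembl's for dm6. Alternatives were RLE scaling, no filter, DESeq2 1.42.0, a replicate block, only the groups compared, leaving out each library, and the columns grouped as in the authors' tables. Leaving psch27 replicate 1 out of the shared fit was chosen after seeing the data. No replicates were copies of each other (chi-square per degree of freedom 2.95 to 139 over 32 pairs).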

Additional observations from a re-analysis of the deposited data

How the results depend on the processing

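Over 55 member results, RLE scaling kept the direction and the side of the threshold in 53, no filter on low counts in 52 and the replicate block in 50, DESeq2 in 45 of 49, and leaving out 1 library in 308 of 345. With only the groups compared, 31 of 40 kept both. Members passing in nej3 were then 2 (4 in the fit of all groups), in psch27 0 and in SppsG8810 2 (0 in the fit of all groups), and all genes passing were 563 for nej3 against nejEP1179 (967), 60 for psch27 (851) and 2783 for SppsG8810 (1007). Without psch27 replicate 1 in the shared fit, 2 members and 2002 genes passed in SppsG8810. With psch27 replicate 1 moved to psce22, 1593 genes passed in psch27, and 5812 genes and 4 members between psce22 and psch27 (1368 and 0 otherwise). For that pair edgeR passed 0 genes with no filter (4188 at an unadjusted p under 0.05), with the block (3556) or with only the groups compared (1298), and DESeq2 passed 2344. Adh in psch27 turned to -5.91 with that move, a fitted value against libraries at 0, and ranged from -5.91 to 1.81 as each library was left out.

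Leaving out each library gave 626 to 991 genes for nej3 against nejEP1179, 2 to 3 members in ez731, 802 to 3685 genes in psce22, 0 to 3 members and 343 to 1557 genes in psch27, 490 to 564 genes in SppsG8810, and 0 to 4 members and 0 to 5520 genes between psce22 and psch27. The lone psce22 library is then assumed to vary like the other groups. Same-numbered libraries of different groups deviated together with correlations of -0.419 to 0.386 at 14-16 h and -0.264 to 0.457 at 16-18 h, so the numbers did not pair them. The replicate block cost FASN1 in nej3 (0.0908), Adh in Dfd1 (0.0693) and ez731 (0.0556) and Lsp2 between the ages (0.0729) their calls, gave Lsp1gamma in Dfd1 one (0.0347), and changed no other call. Lsp1alpha, Lsp1beta and Adh rest on few counts, which limits what their comparisons can show at this depth.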
